A study of Mus musculus with 20 samples.

Results

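Subcutaneous adipose tissue (SAT) of mice whose visceral fat had been removed was compared with SAT of sham-operated mice. The comparison takes every gene of the 10 SAT libraries that passed a filter on low counts, which left 18530 of the 40440 distinct entries of the count table. The 10 libraries, 5 per group, are part of 20, and the other 10 come from the liver of the same 2 kinds of mice. All mice were male C57BL/6J, a common inbred strain, aged 8 to 9 months at surgery and fed regular chow up to it. In the VAT removed group the epididymal fat pads, the main visceral depot of the male mouse (VAT, visceral adipose tissue), were taken out. In the sham group the abdomen was opened and the pads were left in place. Both groups were put on a high-fat diet after surgery for a time that no source used here states. Epididymal pads are 1 of several visceral depots, so the comparison is of mice without these pads, not without visceral fat. The labels do not state that each library came from its own mouse, so the p-values measure the spread between these libraries.

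Subcutaneous fat stores triglyceride in adipocytes, which also secrete hormones such as leptin and adiponectin. Around the adipocytes lie progenitor cells and fibroblasts that deposit collagen, vessels with endothelium and smooth muscle, and immune cells, and the inguinal depot encloses a lymph node and lies against skeletal muscle. On a high-fat diet subcutaneous fat expands and remodels its matrix and vessels, and visceral fat removal takes away another site of storage. RNA from the whole depot mixes all of these cells, so that fewer cells of a type and less RNA per cell cannot be told apart.

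The libraries held 27411596 to 43618452 assigned reads. Levels below are CPM, read counts relative to library size with scaling between libraries by the trimmed mean of M-values (TMM). The score of a gene list averages the log2 CPM of its tested genes in a library. The labelled tissue carried its defining adipocyte genes in each library. Adipoq, the adiponectin gene, measured 1926, 2356, 1011, 983 and 1777 CPM in sham libraries 1 to 5 and 1871, 1649, 1963, 1667 and 2176 CPM in VAT removed libraries 1 to 5. The lowest 2 of these 10 values were those of sham 3 and sham 4, and the groups overlapped. These 2 libraries also had the lowest adipocyte scores, 7.94 and 7.80, against 8.52 to 8.77 in the other sham libraries and 8.32 to 8.63 in the VAT removed libraries. The score of 22 tested lymphocyte and lymph node markers was 5.87 in sham 3 and 5.86 in sham 4, and no other SAT library exceeded 0.781. Ms4a1, the B cell antigen CD20, measured 1.10, 0.852, 64.3, 69.9 and 0.592 CPM in sham libraries 1 to 5 and 0.770, 0.809, 0.688, 0.363 and 0.548 CPM in VAT removed libraries 1 to 5. The score of 23 tested skeletal muscle markers was 9.49 in VAT removed 2, 6.66 in sham 2, 5.27 in VAT removed 1 and 3.15 in VAT removed 3, and at most 1.08 in the other 6. Acta1, skeletal muscle actin, measured 13.4, 601, 8.30, 9.31 and 49.4 CPM in sham libraries 1 to 5 and 226, 5237, 69.6, 39.3 and 15.3 CPM in VAT removed libraries 1 to 5. The lymphocyte signal thus lay in 2 sham libraries alone, and the muscle signal lay in libraries of both groups with its highest value after VAT removal. Results that rest on these libraries are given with and without sham 3, sham 4 and VAT removed 2, called the 3 mixed libraries below.

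**Figure D1:**
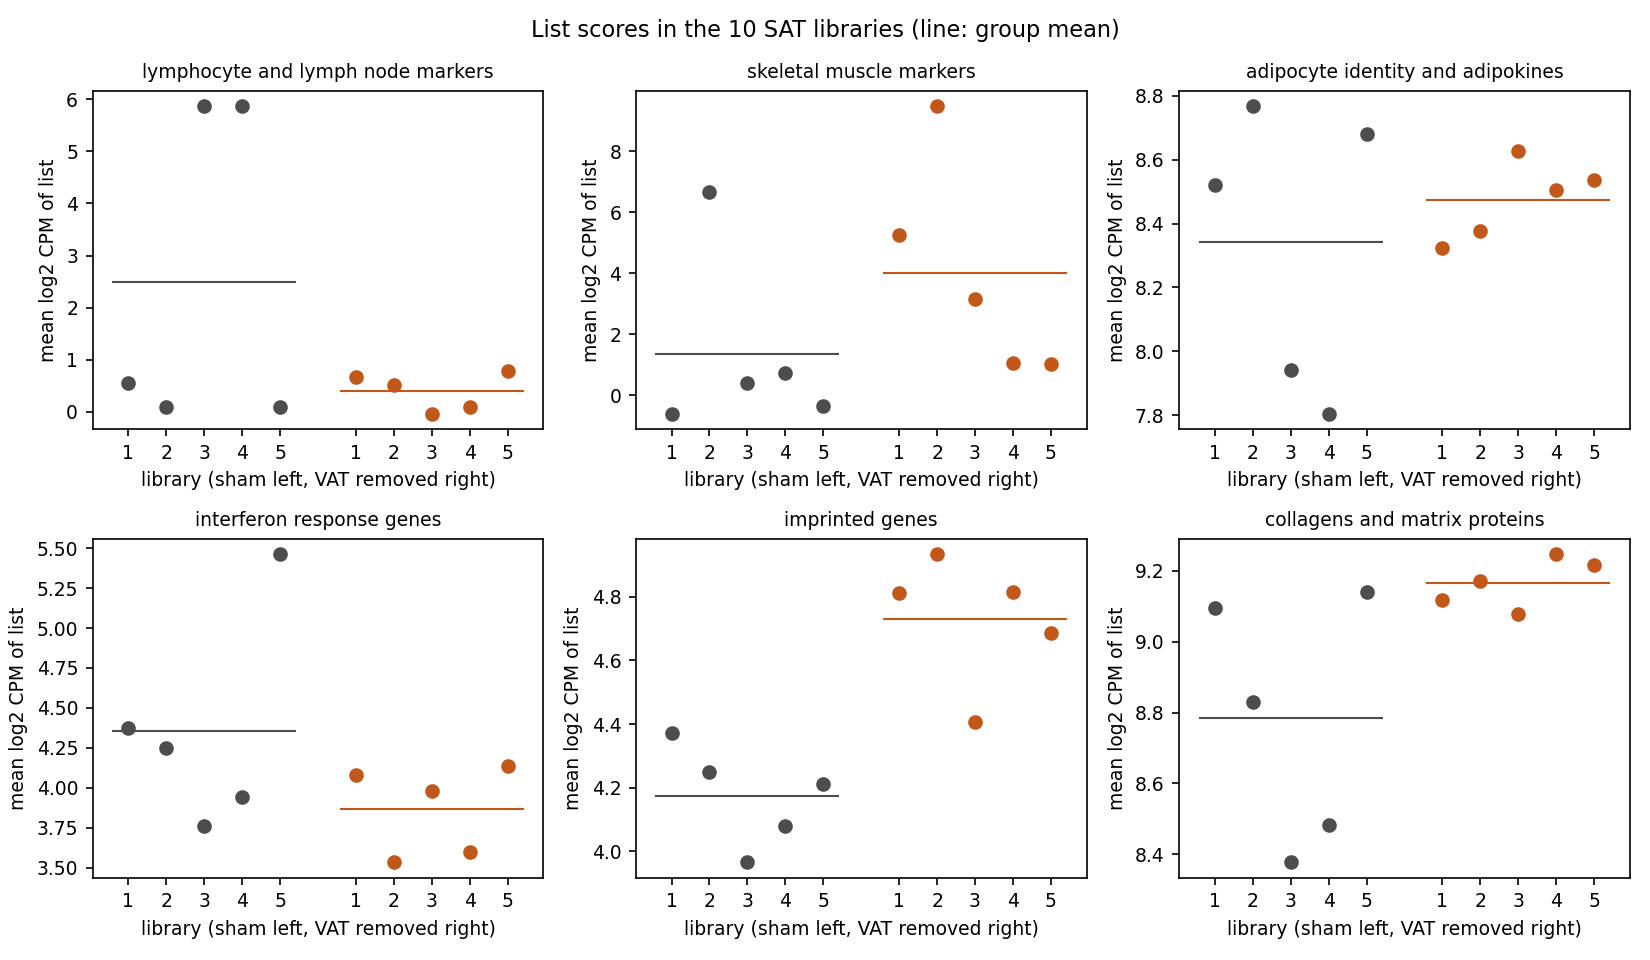
Scores of 6 gene lists in each SAT library (y axes, mean log2 CPM of the tested genes of the list; x axes, library by replicate number; points are single libraries and lines are group means). Sham 3 and sham 4 stand alone in the lymphocyte panel, VAT removed 2 has the highest muscle score, sham 5 has the highest interferon score, and the imprinted scores of the 2 groups do not overlap.

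No gene passed an adjusted p under 0.05 in edgeR's quasi-likelihood test with Benjamini-Hochberg adjustment, 0 of 18530 genes or 0%, and the smallest adjusted p was 0.431. At an unadjusted p under 0.05 stood 1973 genes, 811 higher after VAT removal (4.38% of those tested) and 1162 lower (6.27%). All 5 VAT removed values lay above all 5 sham values for 154 genes (0.831%), and below them for 113 genes (0.61%). DESeq2, which tests the same counts with another estimate of the spread, called 158 of the 17672 genes to which it gave an adjusted p, with 53 higher (0.3%) and 105 lower (0.594%). The 2 kinds of call differed in what stood behind them. In 42 of the 53 higher calls the groups did not overlap, against 20 of the 105 lower calls. Sham 3 and sham 4 were the 2 highest libraries in 93 of the 105 lower calls (88.6%), against 4396 of all genes tested (23.7%), and 16 of the lower calls were in the lymphocyte and immunoglobulin lists. VAT removed 2 was the highest library in 7 of the 53 higher calls, and in 2027 of all 18530 genes tested. Without the 3 mixed libraries DESeq2 called 42 genes. Of the calls on all 10 libraries, 8 were among them. Higher were Peg10, Synpo, Gm22701, Cabyr and Ston1, and lower were Il18, Hsd11b1 and Slc25a30. Of these, Gm22701, Cabyr, Ston1 and Slc25a30 are named here because of their values. Some of the other genes called on all 10 libraries, such as Ms4a1, got no adjusted p without the 3 mixed libraries. In the same 7 libraries edgeR called 0 genes, with 997 higher and 796 lower at an unadjusted p under 0.05. Genes below are described by their values. A call is stated only where DESeq2 made one, and not for every gene that it called.

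**Figure D2:**
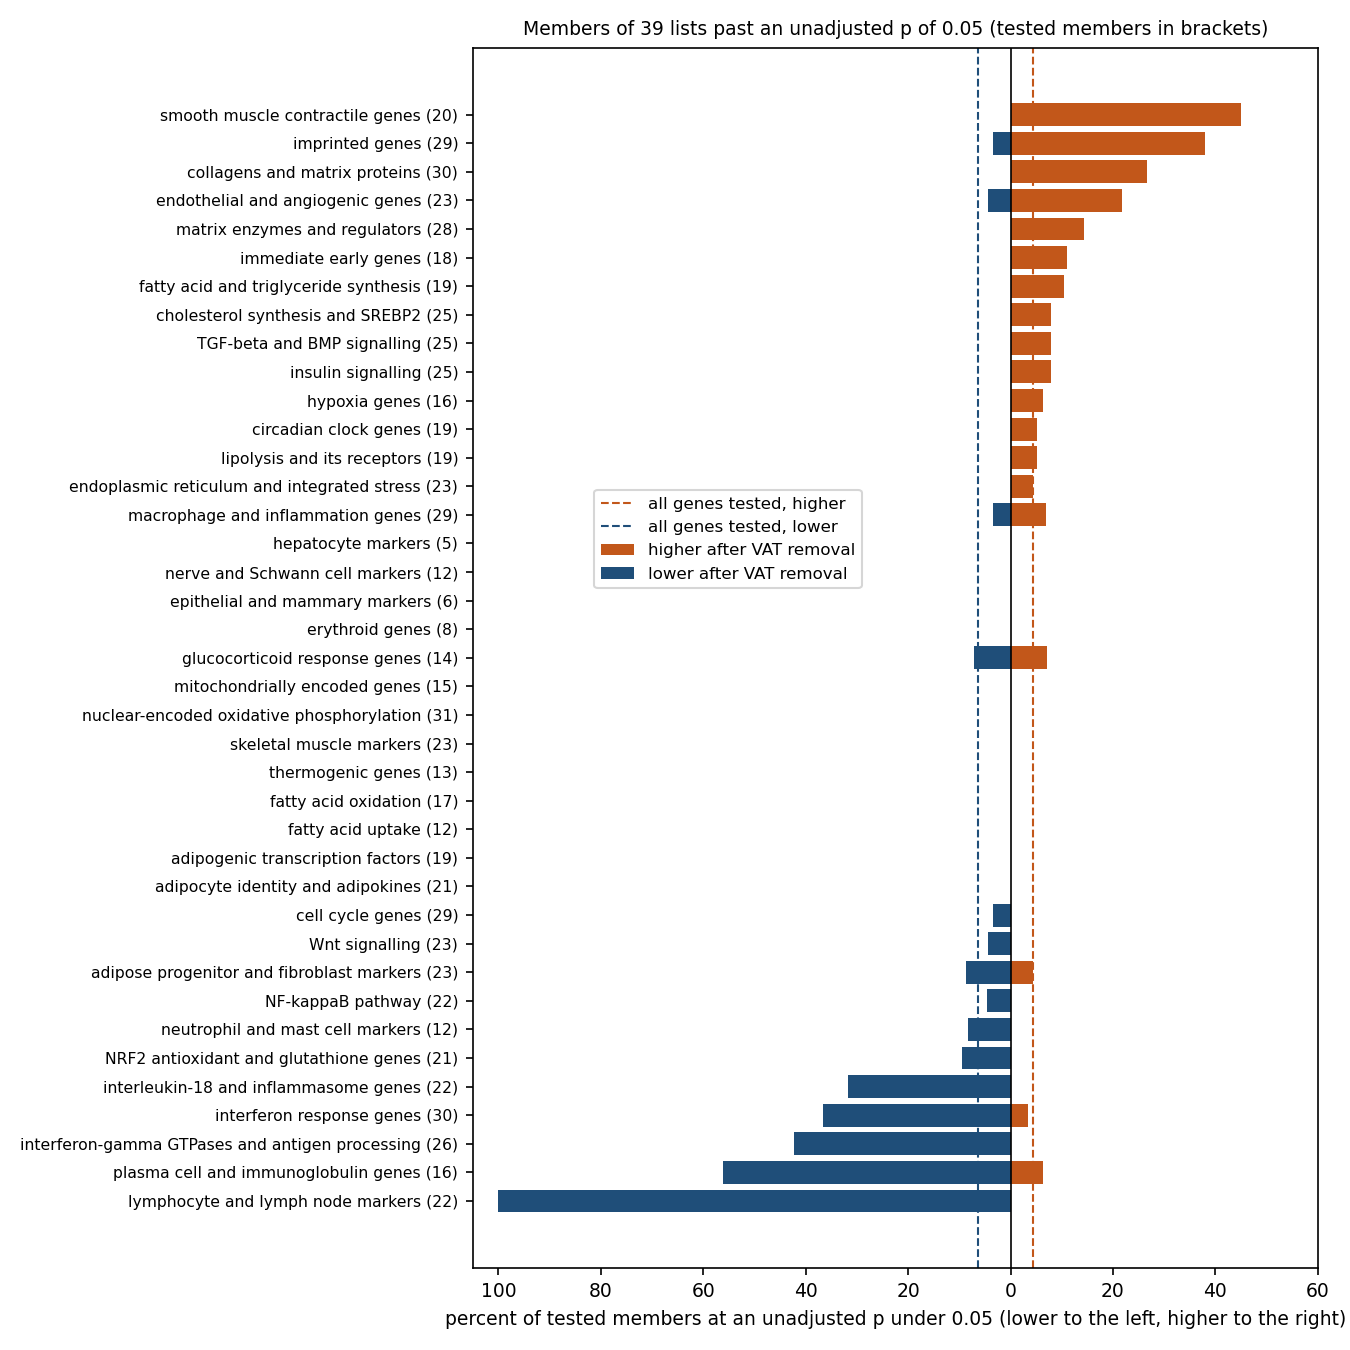
Share of the tested members of each gene list that stood at an unadjusted p under 0.05 in edgeR, higher (to the right) or lower (to the left) after VAT removal (x axis, percent of tested members; y axis, list). Dashed lines are the shares among all genes tested, 4.38% higher and 6.27% lower. The smooth muscle, imprinted and collagen lists have the largest higher shares, and the lymphocyte list the largest lower share.

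In 6 genes described first the groups did not overlap and DESeq2 made a call, Peg10, Lmcd1 and Synpo on the higher side and Il18, Samd9l and Hsd11b1 on the lower side. Peg10, an imprinted gene derived from a retrotransposon and best known from the placenta, measured 21.7, 25.7, 12.6, 15.1 and 21.4 CPM in sham libraries 1 to 5 and 33.3, 32.8, 38.7, 41.6 and 29.6 CPM in VAT removed libraries 1 to 5. All 5 VAT removed values lay above all 5 sham values, and sham 3 and sham 4 were the lowest of the 10. Its mean was 35.2 ± 4.85 CPM against 19.3 ± 5.31 CPM (SD, n = 5 per group). The log2 difference was 0.87 ± 0.19 (SE) and 0.64 without the 3 mixed libraries (DESeq2 adjusted p = 0.0112, edgeR adjusted p = 0.431). Lmcd1, a LIM domain protein of cardiac and smooth muscle that binds GATA factors, measured 8.87, 10.5, 9.51, 8.71 and 10.99 CPM in sham libraries 1 to 5 and 15.4, 13.95, 12.6, 13.8 and 14.4 CPM in VAT removed libraries 1 to 5. The groups did not overlap, sham 4 was the lowest library and VAT removed 1 the highest. The log2 difference was 0.53 ± 0.10, and 0.47 without those libraries (DESeq2 adjusted p = 0.00276). Synpo, the actin-binding protein synaptopodin, measured 29.2, 33.1, 37.1, 35.5 and 38.96 CPM in sham libraries 1 to 5 and 44.7, 61.6, 45.7, 50.9 and 51.8 CPM in VAT removed libraries 1 to 5. VAT removed 2 was the highest library, the groups did not overlap, and the log2 difference was 0.55 ± 0.11, or 0.51 without the mixed libraries (DESeq2 adjusted p = 0.00724).

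On the lower side, Il18, the inflammasome-processed cytokine interleukin-18, measured 3.68, 3.48, 2.58, 2.80 and 3.18 CPM in sham libraries 1 to 5 and 2.25, 1.85, 1.64, 1.33 and 1.61 CPM in VAT removed libraries 1 to 5. The highest VAT removed value lay below the lowest sham value, and sham 3 and sham 4 were the lowest sham libraries, not the highest. Its mean was 1.74 ± 0.341 CPM against 3.14 ± 0.458 CPM. The log2 difference was -0.86 ± 0.18 and -1.01 without the mixed libraries (DESeq2 adjusted p = 0.00752). Samd9l, an interferon-inducible growth inhibitor, measured 84.3, 83.8, 96.4, 89.2 and 108 CPM in sham libraries 1 to 5 and 72.8, 54.2, 59.1, 58.5 and 69.6 CPM in VAT removed libraries 1 to 5. The groups did not overlap, sham 5 was the highest library, and the log2 difference was -0.55 ± 0.11 with -0.50 without the mixed libraries (DESeq2 adjusted p = 0.00495). Hsd11b1, the enzyme that regenerates active glucocorticoid from its inactive form inside fat and liver, measured 91.2, 94.5, 58.1, 54.7 and 74.2 CPM in sham libraries 1 to 5 and 28.003, 32.4, 51.98, 48.5 and 38.6 CPM in VAT removed libraries 1 to 5. Its 3 highest values were those of sham 1, sham 2 and sham 5, and the lowest was VAT removed 1. The log2 difference was -0.90 ± 0.21, and -1.05 without the mixed libraries (DESeq2 adjusted p = 0.0184). The DESeq2 calls of Peg10, Synpo, Il18 and Hsd11b1 held in the 7 remaining libraries, with adjusted p of 0.0338, 0.0427, 0.0169 and 0.00363, and those of Lmcd1 (adjusted p = 0.0811) and Samd9l (adjusted p = 0.0601) did not. In the GENCODE annotation of the GRCm38 build, Peg10 spans chr6:4747306-4760517, Lmcd1 chr6:112273758-112330425, Il18 chr9:50554827-50581840, Samd9l chr6:3372257-3399572 and Hsd11b1 chr1:193221634-193264075.

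**Figure D3:**
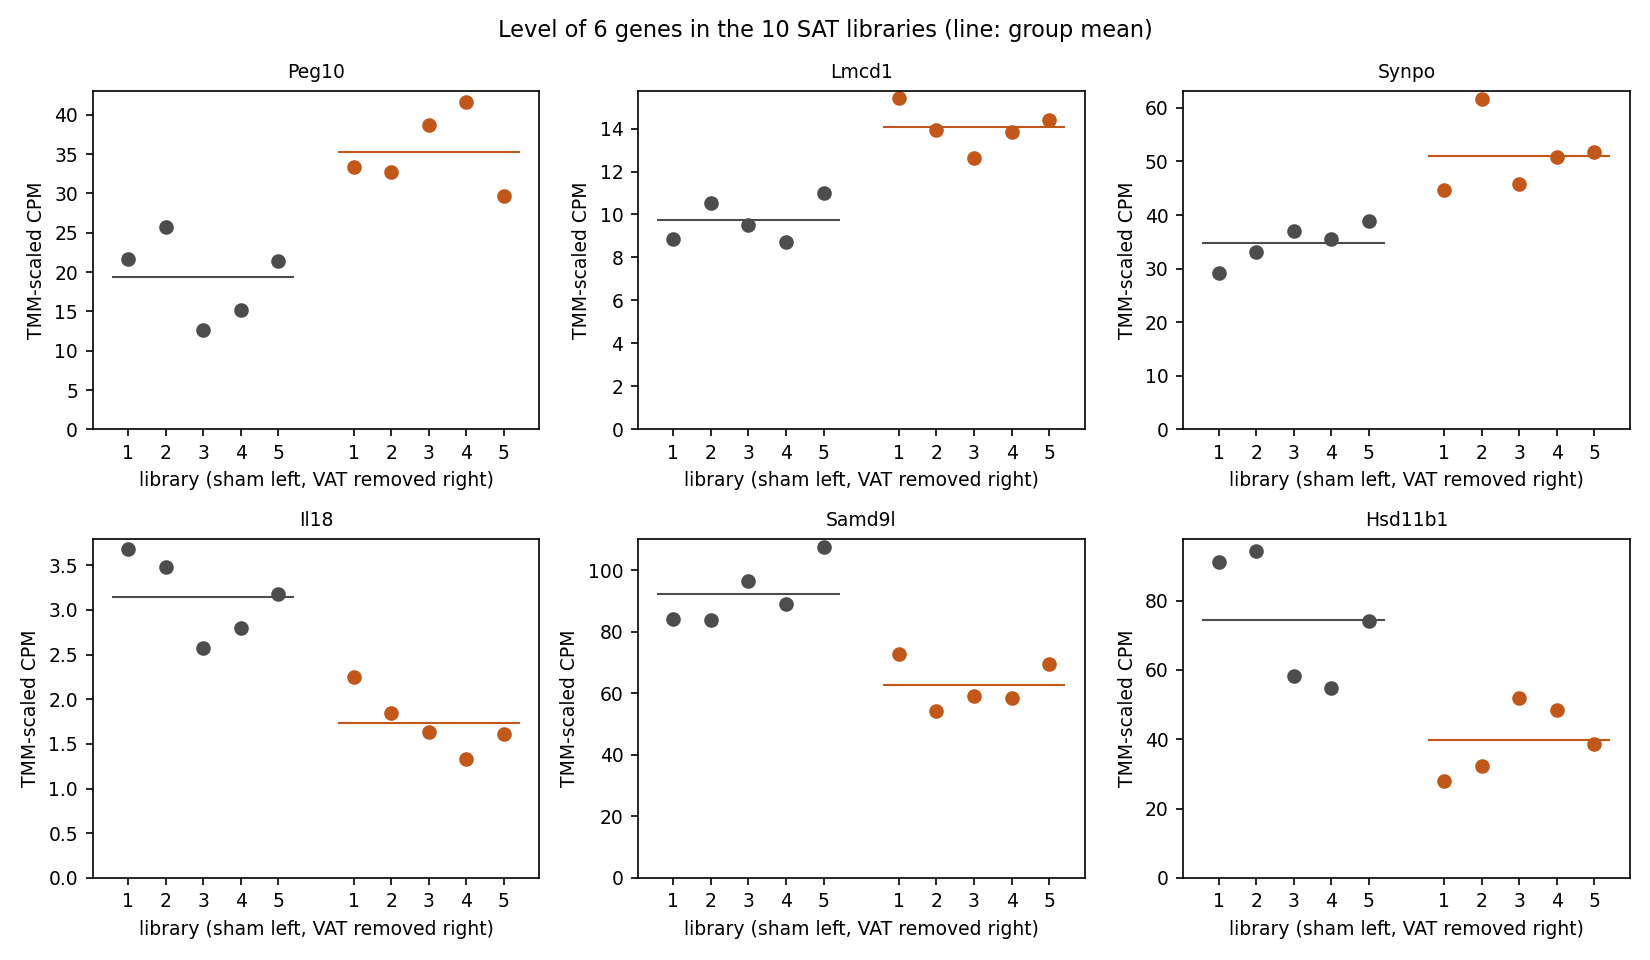
CPM of 6 genes in each SAT library (y axes, CPM from 0; x axes, library by replicate number; points are single libraries and lines are group means). The groups do not overlap for any of the 6, with Peg10, Lmcd1 and Synpo higher and Il18, Samd9l and Hsd11b1 lower after VAT removal.

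Imprinted genes are expressed from 1 parental copy, and several of them form a network known for fetal growth and, in adipose tissue, for adipocyte number and size. Of 29 tested imprinted genes, 11 were higher and 1 was lower at an unadjusted p under 0.05, against 4.38% and 6.27% of all genes. The median log2 difference of the list was 0.44, against -0.00 over all genes tested. The imprinted score ranged from 3.97 to 4.37 in the sham libraries and from 4.41 to 4.93 in the VAT removed libraries. Without the 3 mixed libraries the median was 0.27, with 8 members higher and 2 lower, against 5.27% and 4.21% of all genes in that fit.

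Among the growth-promoting or growth-related members, Zim1, an imprinted zinc finger gene beside Peg3, measured 6.14, 2.10, 9.88, 6.15 and 5.37 CPM in sham libraries 1 to 5 and 22.3, 26.7, 8.09, 32.98 and 15.9 CPM in VAT removed libraries 1 to 5. VAT removed 3 lay inside the sham range and the other 4 above it, and the log2 difference was 1.84 ± 0.43 (DESeq2 adjusted p = 0.00724) and 2.13 without the mixed libraries. Peg3, a zinc finger regulator of growth and lipid metabolism, measured 122 to 359 CPM in the sham libraries and 221 to 784 CPM in the VAT removed libraries, with a log2 difference of 1.24 ± 0.37. Plagl1, a zinc finger regulator of this network, measured 32.96 to 61.9 CPM in the sham libraries and 64.2 to 183 CPM in the VAT removed libraries, with no overlap and a log2 difference of 1.13 ± 0.30. For both the difference was as large without the mixed libraries, 1.42 and 1.14. Dlk1, the preadipocyte factor that holds back adipocyte differentiation, measured 1.13, 0.852, 0.303, 0.452 and 0.518 CPM in sham libraries 1 to 5 and 2.28, 1.97, 0.546, 1.45 and 1.77 CPM in VAT removed libraries 1 to 5, a log2 difference of 1.28 ± 0.43 and 0.84 without the mixed libraries. Its neighbours in the same imprinted domain, the noncoding Meg3 and the retrotransposon-derived Rtl1, differed by 0.61 ± 0.21 and 0.84 ± 0.31, and by 0.40 and 1.10 without those libraries. Igf2, a fetal growth factor, differed by 0.46 ± 0.19. Airn, the noncoding RNA that silences Igf2r on the paternal copy, measured 20.997, 14.4, 19.8, 19.5 and 19.5 CPM in sham libraries 1 to 5 and 27.5, 26.6, 26.8, 24.03 and 28.7 CPM in VAT removed libraries 1 to 5. Its groups did not overlap, and its log2 difference was 0.50 ± 0.11 while that of Igf2r was 0.16 ± 0.10, and 0.04 without the mixed libraries. Zrsr1, a splicing factor gene, was the lower member with -0.22 ± 0.10.

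A few imprinted members were highest in VAT removed 2, the library with the highest muscle score, whose part in their differences was not tested beyond leaving it out. H19, a noncoding RNA that stays expressed in muscle, measured 1.48, 6.61, 0.515, 1.21 and 1.85 CPM in sham libraries 1 to 5 and 4.31, 18.96, 3.06, 3.14 and 10.1 CPM in VAT removed libraries 1 to 5, and its log2 difference of 1.75 was 0.62 without the mixed libraries. Slc38a4, an amino acid transporter, had 17.7 CPM in VAT removed 2 and at most 3.31 CPM elsewhere, and its difference went from 1.61 to 0.28. In those 7 libraries the differences of Peg10, Peg3, Plagl1, Airn and Zim1 were 0.64, 1.42, 1.14, 0.55 and 2.13.

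**Figure D4:**
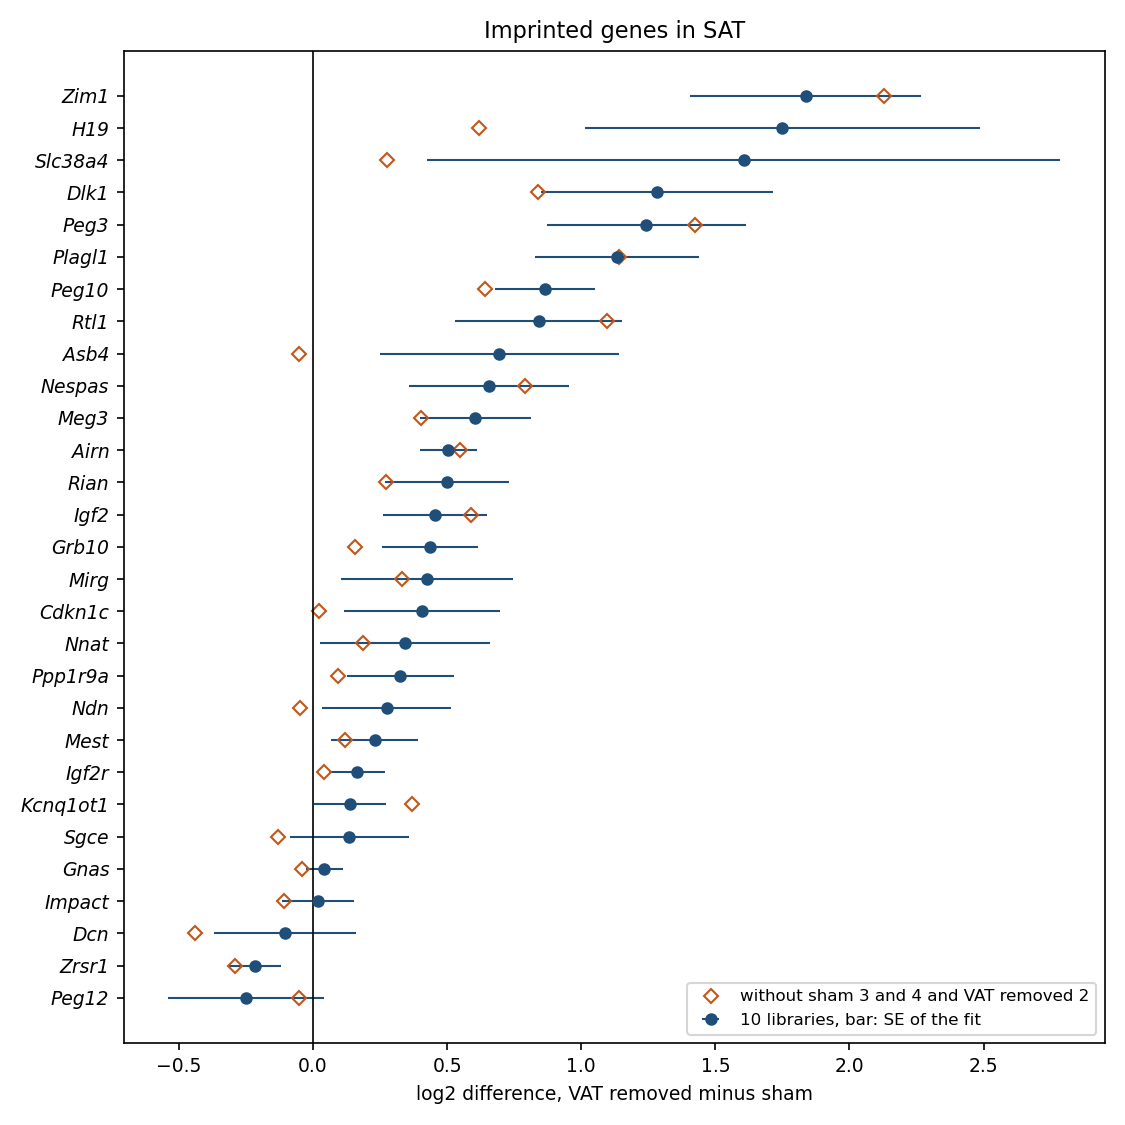
Log2 difference between VAT removed and sham libraries for the tested imprinted genes (x axis, log2 difference with its SE; y axis, gene), on all 10 libraries and without sham 3, sham 4 and VAT removed 2. Most genes lie above 0 on both sets of libraries, and H19, Slc38a4 and Asb4 lie closer to 0 without the 3 libraries.

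Contractile genes of smooth muscle, the muscle of vessel walls, also held more higher members than the 4.38% of all genes. Of 20 tested members, 9 were higher and 0 lower at an unadjusted p under 0.05. In 4 the groups did not overlap, against 0.831% of all genes on the higher side. The median log2 difference was 0.42, 0.42 without sham 3 and sham 4, and 0.36 without the 3 mixed libraries. In that last fit 6 members were higher, where 997 of all 18903 genes were. Members with a positive difference went from 19 of 20 to 14 of 20 without the 3 mixed libraries. Lmcd1 and Synpo belong to this list and were given above. Both were among the 9 higher members and the 4 without overlap. The list was drawn up with earlier results of these data known, so its counts are not independent of those results. Myl9, the regulatory light chain of smooth muscle myosin, measured 26.7, 27.98, 22.2, 24.5 and 34.1 CPM in sham libraries 1 to 5 and 38.1, 35.9, 31.5, 46.5 and 36.1 CPM in VAT removed libraries 1 to 5, a log2 difference of 0.48 ± 0.13. Lmod1, an actin filament nucleator of smooth muscle, differed by 0.69 ± 0.20. Myocd, the coactivator of serum response factor that drives these genes, differed by 0.61 ± 0.20, and Tagln, the actin-binding protein transgelin, by 0.36 ± 0.13. Without the mixed libraries these 4 stood at 0.36, 0.54, 0.53 and 0.46. The best known member, the smooth muscle actin Acta2, differed by 0.10 ± 0.23, and by -0.14 without those libraries. Members that skeletal muscle also expresses followed VAT removed 2. Tpm1, a tropomyosin, measured 2085 CPM there and its difference went from 2.21 to -0.08 without the mixed libraries, Tpm2 went from 2.44 to -0.91, and Des, the intermediate filament desmin, from 1.79 to -0.36.

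The CArG box is the sequence that serum response factor binds at many contractile genes, and the promoters of members that hold it are shown to place it beside their values. In RefSeq's promoter windows of GRCm38.p6, limited to the 250 bases before each gene's start, it was found on either strand in 2 of the 14 list members with a window (14.3%) and in 439 of all 27025 genes with one (1.62%). Among imprinted genes with a window, 2 of 21 held it (9.52%). The stretches below are read 5′ to 3′ on the gene's strand with the box in capitals. Lmcd1 lies on the plus strand, chr6:112273513-112273582, and Myl9 on the plus strand, chr2:156775273-156775342. A match is a description of these letters and does not show that the factor binds there.
Lmcd1: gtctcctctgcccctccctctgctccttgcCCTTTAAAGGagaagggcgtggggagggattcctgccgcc
Myl9: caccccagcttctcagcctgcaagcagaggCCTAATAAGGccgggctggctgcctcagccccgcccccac

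Of 30 tested collagens and other matrix proteins, 29 had a positive log2 difference on all 10 libraries. At an unadjusted p under 0.05, 8 were higher and 0 lower (4.38% and 6.27% of all genes). In 4 the groups did not overlap, against 0.831% of all genes on the higher side. Without the 3 mixed libraries the median went from 0.29 to 0.07, with 6 members higher, where 5.27% of all genes were. Thbs2, a matricellular thrombospondin, measured 158, 209, 74.7, 98.999 and 172 CPM in sham libraries 1 to 5 and 300.4, 239.9, 212, 329 and 288 CPM in VAT removed libraries 1 to 5. The highest sham value, in sham 2, lay just under the lowest VAT removed value, in VAT removed 3, and sham 3 and sham 4 were the lowest of the 10. The log2 difference was 0.94 ± 0.26 (DESeq2 adjusted p = 0.0462) and 0.65 without the mixed libraries. Thbs1, its relative that can activate latent TGF-beta, differed by 0.99 ± 0.40 and by 1.22 without them. Postn, the matricellular protein periostin, differed by 0.72 ± 0.26 and 0.86. Col1a1, the main fibrillar collagen chain, measured 1514 to 2392 CPM in the sham libraries and 2029 to 3508 CPM in the VAT removed libraries, with a log2 difference of 0.56 ± 0.19 and 0.40. Col6a1 and Col6a2, chains of the beaded collagen that surrounds adipocytes, differed by 0.52 ± 0.18 and 0.45 ± 0.15, and by 0.33 and 0.30 without the mixed libraries.

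Of the enzymes and regulators of the matrix, 4 of 28 tested members were higher and 0 lower at an unadjusted p under 0.05, beside 4.38% and 6.27% of all genes. Without the mixed libraries 1 was higher and 3 were lower, where 997 and 796 of all 18903 genes were. The members named next all had a positive difference. P4ha3, a collagen prolyl hydroxylase, measured 0.267, 0.175, 0.424, 0.301 and 0.0740 CPM in sham libraries 1 to 5 and 0.493, 0.617, 0.356, 0.816 and 1.07 CPM in VAT removed libraries 1 to 5, a log2 difference of 1.40 ± 0.43 and 1.92 without the mixed libraries. Timp3, a metalloproteinase inhibitor bound to matrix, differed by 0.51 ± 0.22, and Loxl4, a collagen cross-linking oxidase, by 0.49 ± 0.20, with 0.37 and 0.31 without those libraries. Of the endothelial and angiogenic genes, 5 of 23 were higher and 1 lower, and without the mixed libraries 1 and 3, a share near that of all genes on the higher side. On all 10 libraries Flt1, a VEGF receptor, differed by 0.43 ± 0.16 and Esam, an endothelial adhesion molecule, by 0.47 ± 0.20. Their values without the mixed libraries are not given here. Vwf, von Willebrand factor, differed by 0.48 ± 0.18 and by 0.27 without those libraries. Prox1, the regulator of lymphatic endothelium, was the lower member with -2.77 ± 0.98. It measured 0.771, 1.13, 10.7, 21.5 and 0.777 CPM in sham libraries 1 to 5 and 0.709, 1.00, 0.902, 1.81 and 0.670 CPM in VAT removed libraries 1 to 5, so that its difference lay in sham 3 and sham 4 and was 0.19 without the mixed libraries.

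Genes of the interferon response were lower after VAT removal in the mean, with 1 sham library standing far above the rest. Type I interferon acts on its target genes mainly through the interferon-stimulated response element (ISRE), and interferon-gamma mainly through the gamma-activated site (GAS). The list of 30 tested response genes had a median log2 difference of -0.65, with 11 members lower and 1 higher at an unadjusted p under 0.05, where 6.27% and 4.38% of all genes were. Promoter stretches of 6 members of the 2 interferon lists are shown because the lists hold these elements more often than genes at large. The ISRE core searched was GAAA, any 2 bases and GAAA again, on either strand, and the GAS was TTCNNNGAA, which reads alike on both. In the 250 bases before the start, the core was found in 11 of 22 response genes with a RefSeq window and 9 of 18 genes of the interferon-gamma list, 50% in each, against 3.46% of all 27025 genes. The GAS was found in 4 response genes (18.2%) and 7 genes of the interferon-gamma list (38.9%), against 8.13% of all genes. The stretches are from RefSeq on GRCm38.p6, read 5′ to 3′ on the gene's strand, with matches to the ISRE core and the GAS in capitals, and overlapping matches run together. Cxcl10 is on the minus strand, chr5:92349063-92349132, Trim30a on the minus strand, chr7:104465194-104465259, and Oas3 on the minus strand, chr5:120777695-120777764. Igtp is on the plus strand, chr11:58199492-58199555, Irgm1 on the minus strand, chr11:48871421-48871480, and Tgtp2 on the minus strand, chr11:49064243-49064312. The matches were not tested for binding.
Cxcl10: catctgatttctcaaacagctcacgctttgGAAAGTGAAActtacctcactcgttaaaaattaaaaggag
Trim30a: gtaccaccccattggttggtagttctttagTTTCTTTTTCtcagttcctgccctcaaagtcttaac
Oas3: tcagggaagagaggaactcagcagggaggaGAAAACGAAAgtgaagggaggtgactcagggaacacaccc
Igtp: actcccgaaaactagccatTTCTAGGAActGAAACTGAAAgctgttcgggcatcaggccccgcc
Irgm1: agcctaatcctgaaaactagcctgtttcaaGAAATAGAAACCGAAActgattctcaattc
Tgtp2: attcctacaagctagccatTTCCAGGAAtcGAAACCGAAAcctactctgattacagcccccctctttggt

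Sham 5 was the highest of the 10 libraries for 27 of the 30 response genes, against 1153 of all genes tested (6.22%). Its interferon score was 5.46, and the other 9 libraries lay between 3.53 and 4.37. Ifit1, an RNA-binding effector of the response, measured 15.6, 13.5, 5.70, 6.60 and 51.2 CPM in sham libraries 1 to 5 and 9.70, 5.82, 8.50, 9.19 and 10.1 CPM in VAT removed libraries 1 to 5, with the sham 5 value far above the others and a log2 difference of -1.10 ± 0.55. Without sham 5 the list's median was -0.25 with 7 members lower (8.70% of all genes in that fit), and without sham 3, 4 and 5 it was -0.40 with 9 lower (3.76%). With sham 5 kept and the 3 mixed libraries left out it was -0.86, with 19 of 30 lower (4.21%). Irf9, the DNA-binding part of the complex that occupies the ISRE, differed by -0.46 ± 0.13. Its difference was -0.34 without sham 5 and -0.26 without sham 3, 4 and 5. With sham 5 kept, the DNA sensor Zbp1 differed by -0.85 ± 0.27. In the same fit Oas3, which makes the activator of an antiviral RNase, differed by -1.03 ± 0.38, and Trim30a, a restriction factor, by -0.56 ± 0.18. Values of Zbp1, Oas3 and Trim30a without sham 5 are not given here. Cxcl10, a chemokine that draws T cells, was the member that went the other way. It measured 7.65, 7.64, 7.58, 6.69 and 8.99 CPM in sham libraries 1 to 5 and 11.4, 9.25, 8.99, 11.1 and 9.48 CPM in VAT removed libraries 1 to 5, the highest sham and the lowest VAT removed value were equal to 3 digits, and the log2 difference was 0.38 ± 0.12.

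The list of interferon-gamma-induced GTPases and antigen processing genes had a median log2 difference of -0.49 and 11 of 26 tested members lower, with 0 higher, beside 6.27% lower among all genes. It went to -0.23 with 5 lower without the 3 mixed libraries, where 4.21% of all genes were. Without sham 3, 4 and 5 it was -0.19 with 2 lower, beside 3.76% of all genes. Sham 3 and sham 4 were the 2 highest libraries for 12 of the 26 and sham 5 the highest for 11. Igtp, an immunity-related GTPase that guards vacuoles, measured 21.98, 15.8, 20.97, 17.2 and 26.5 CPM in sham libraries 1 to 5 and 16.4, 10.5, 10.5, 10.6 and 14.7 CPM in VAT removed libraries 1 to 5. VAT removed values lay under most of the sham values, and the log2 difference was -0.71 ± 0.18 (DESeq2 adjusted p = 0.0403) and -0.71 without the mixed libraries. Irgm1, the regulator of these GTPases, measured 25.2, 20.02, 25.6, 25.2 and 38.8 CPM in sham libraries 1 to 5 and 19.6, 15.9, 17.9, 15.3 and 21.6 CPM in VAT removed libraries 1 to 5, a log2 difference of -0.58 ± 0.17 and -0.59. Tgtp2, another of them, differed by -0.83 ± 0.26 and -0.68. Without sham 5 the differences of Igtp and Irgm1 were -0.59 and -0.41. Without sham 3, 4 and 5 they were -0.59 and -0.33. Genes of antigen presentation lay nearer 0 without the mixed libraries. Ciita, the activator of class II genes that B cells express, went from -1.48 to 0.12 without the mixed libraries, Tap1, the peptide transporter, from -0.88 to -0.29, and H2-Aa, a class II chain, from -0.41 to -0.01.

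**Figure D5:**
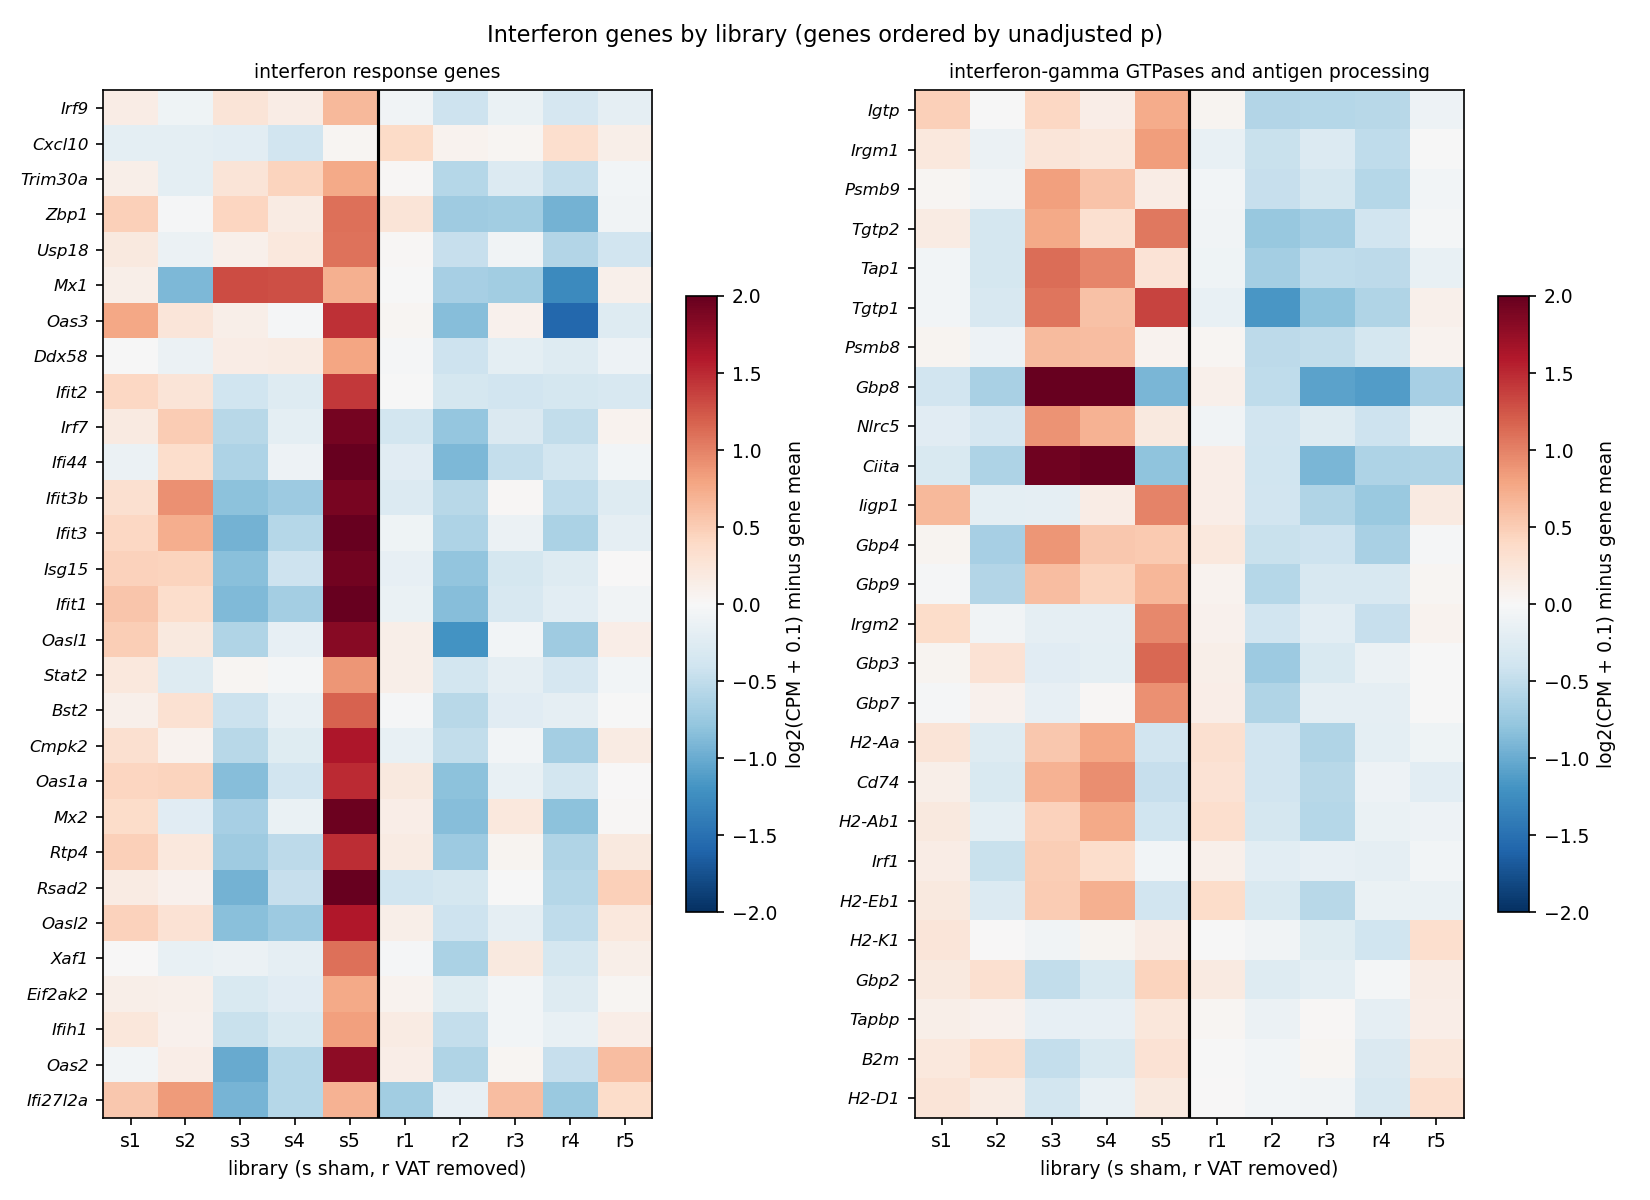
Interferon response genes (left) and interferon-gamma GTPases and antigen processing genes (right) in each SAT library (columns s1 to s5, sham, and r1 to r5, VAT removed; rows, genes reported here in order of unadjusted p). Colour is log2(CPM + 0.1) minus the gene's mean over the 10 libraries, and values past the ends of the scale take the end colour. On the left the s5 column is the highest in most genes, and on the right s3 and s4 are the 2 highest for 12 of the 26.

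Around Il18 itself, 7 of 22 tested interleukin-18 and inflammasome genes were lower and 0 higher, beside 6.27% lower among all genes, with a median of -0.27. Without the 3 mixed libraries 2 were lower, beside 4.21% of all genes, with a median of -0.05. Its receptor chains, carried by T and NK cells, were highest in sham 3 and sham 4. Il18r1 measured 4.77, 2.45, 45.5, 29.9 and 3.59 CPM in sham libraries 1 to 5 and 2.43, 1.12, 3.09, 3.17 and 2.80 CPM in VAT removed libraries 1 to 5 and went from -2.77 to -0.33, and Il18rap went from -1.38 to -0.05. Pycard, the inflammasome adaptor, went from -0.67 to -0.24, and Gsdmd, the pore former of pyroptosis, from -0.48 to -0.10. Casp1, the protease that matures IL-18, differed by 0.01 ± 0.17, Nlrp3, the best known sensor, by -0.25 ± 0.27, and the secreted antagonist Il18bp by -0.30 ± 0.20, and without the mixed libraries these stood at -0.09, -0.04 and 0.07. Il1rap, the shared receptor chain of the interleukin-1 family, differed by -0.38 ± 0.16 on all 10 libraries and by -0.47 without the mixed ones.

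Genes of the adipocyte itself differed little on all 10 libraries. Of 21 tested adipocyte identity and adipokine genes, 0 stood at an unadjusted p under 0.05 in either direction and the median was 0.11. The same held for 19 adipogenic transcription factors (median 0.10), 12 fatty acid uptake genes (0.06), 17 fatty acid oxidation genes (0.00), 13 thermogenic genes (0.04) and 31 nuclear-encoded genes of oxidative phosphorylation (0.00). Adipoq differed by 0.21 ± 0.24, Lep, the leptin gene, by 0.06 ± 0.17, Pparg, the master regulator of adipocytes, by 0.16 ± 0.16, and Lpl, the lipase that takes up lipoprotein fat, by 0.12 ± 0.18. Without the mixed libraries these 4 stood at -0.08, -0.19, -0.05 and -0.10. These intervals do not show that the groups were alike. Without the 3 mixed libraries the medians turned below 0, to -0.14 for the identity genes with 3 lower, -0.27 for oxidation with 3 lower, and -0.32 for thermogenic genes with 3 lower. In the oxidative phosphorylation list 16 of 31 were then lower with a median of -0.24, where 4.21% of all genes were. Uqcrc2, a core subunit of complex III, measured 108, 135, 73.5, 79.2 and 113 CPM in sham libraries 1 to 5 and 75.6, 106, 109, 92.1 and 91.4 CPM in VAT removed libraries 1 to 5, and its difference went from -0.10 to -0.37. Sham 3 and sham 4, whose adipocyte scores were the lowest, were 2 of its 3 lowest values, and the part of cell makeup in this turn was not tested. Sham 2, whose muscle score was 6.66, was kept when the 3 mixed libraries were left out. Without sham 2, 3 and 4 and VAT removed 1 and 2, the oxidation and thermogenic medians were -0.16 and -0.27. In that fit 0 and 1 of their members were lower. Without sham 3, 4 and 5 the 2 medians were -0.20 and -0.23, with 0 lower in each list. The count of 16 of 31 for oxidative phosphorylation was taken with sham 2 kept, and its counterpart without sham 2 is not given here. Of that list, Atp5g1 and Ndufb10 differed by -0.09 and -0.08 without the 3 mixed libraries. Without sham 2, 3 and 4 and VAT removed 1 and 2 they differed by -0.08 and 0.03.

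In lipid synthesis, 2 of 19 fatty acid and triglyceride genes and 2 of 25 cholesterol genes were higher and 0 lower at an unadjusted p under 0.05, counts close to what 4.38% of all genes gives for lists of this size. Elovl6, which lengthens palmitate, measured 19.9, 23.7, 17.3, 18.02 and 26.3 CPM in sham libraries 1 to 5 and 27.8, 28.1, 34.7, 32.9 and 33.5 CPM in VAT removed libraries 1 to 5. Its log2 difference was 0.58 ± 0.13 (DESeq2 adjusted p = 0.0186) and 0.47 without the mixed libraries. Elovl5, an elongase of polyunsaturated fat, differed by 0.17 ± 0.08, and Sqle, an early step of sterol synthesis, by 0.21 ± 0.09. Fasn, the fatty acid synthase, differed by 0.10 ± 0.23, and by -0.20 without the mixed libraries. Of 25 insulin signalling genes 2 were higher, also close to the 4.38% of all genes. Irs2, an insulin receptor substrate, was higher with a log2 difference of 0.53 ± 0.16 and Grb10, an imprinted inhibitor of the receptor, with 0.44 ± 0.18, and without the mixed libraries they stood at 0.58 and 0.16. In lipolysis 1 of 19 was higher, Npr1, the natriuretic peptide receptor, with 0.35 ± 0.15, and with 0.18 without the mixed libraries. The 14 glucocorticoid response genes, Hsd11b1 among them, had a median of 0.07, with Fkbp5, a chaperone that the receptor induces, at -0.44 ± 0.48, Per1 at 0.41 ± 0.21 and the receptor gene Nr3c1 at -0.01 ± 0.13.

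Among stromal and immune cells, the counts of the progenitor and macrophage lists on all 10 libraries lay near the shares of all genes. Of the markers of progenitors and fibroblasts, 1 of 23 was higher, Dlk1, and 2 were lower, with a median of 0.01. Without the 3 mixed libraries 6 were lower and 0 higher, where 4.21% of all genes were lower, with a median of -0.24. Cd55, a marker of early progenitors, differed by -0.53 ± 0.19 and by -0.24 in the 7 libraries, and Thy1, a stromal surface protein that T cells also carry, by -0.70 ± 0.26 and -0.29. Of 29 macrophage and inflammation genes, Spp1, osteopontin, was higher with 1.06 ± 0.45 and Cd9, a marker of lipid-associated macrophages, with 0.31 ± 0.10 (0.78 and 0.22 without the mixed libraries), and Timd4, a receptor of resident macrophages, was lower with -2.53 ± 0.66. Timd4 measured 7.98, 6.56, 21.7, 55.6 and 5.25 CPM in sham libraries 1 to 5 and 4.90, 2.43, 3.09, 3.87 and 2.47 CPM in VAT removed libraries 1 to 5, so that sham 3 and sham 4 were the 2 highest and its difference without the mixed libraries was -0.89. All 22 tested lymphocyte markers were lower at an unadjusted p under 0.05, with a median of -4.18. Of 16 plasma cell and immunoglobulin genes 9 were lower and 1 higher, beside 6.27% and 4.38% of all genes. Without sham 3 and sham 4 the lymphocyte median was 0.22 with 1 marker higher and 0 lower. NF-kappaB and cell cycle genes, with medians of -0.30 and -0.41, likewise went to 0.09 and 0.10 without these 2 libraries. In the plasma cell list, Mzb1 went from -3.71 to -1.83 without sham 3 and sham 4, so that part of its difference remained. Sdc1, its higher member, went from 0.40 to 0.44. The muscle list had a median of 3.29 with 0 of 23 at an unadjusted p under 0.05, and of -0.93 without the 3 mixed libraries. Hepatocyte, nerve, epithelial, erythroid and mitochondrially encoded lists had 0 members at that level in either direction on all 10 libraries.

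Outside the lists, the genes with the smallest unadjusted p in edgeR included Cacna1g, a T-type calcium channel gene, and Plxna4os2, a noncoding RNA, on the higher side. Cacna1g measured 2.64, 2.78, 2.15, 2.65 and 3.81 CPM in sham libraries 1 to 5 and 4.68, 5.97, 4.56, 5.14 and 8.41 CPM in VAT removed libraries 1 to 5, a log2 difference of 1.04 ± 0.21 and 0.89 without the mixed libraries. Plxna4os2 differed by 0.71 ± 0.14 and 0.68. On the lower side were Lypd6b, a Ly6 family gene, with -1.20 ± 0.21, Ppil1, a splicing-associated prolyl isomerase, with -0.48 ± 0.11, and the immunoglobulin segment Igkv5-43. Lypd6b measured 2.34, 1.95, 2.76, 2.47 and 1.55 CPM in sham libraries 1 to 5 and 0.986, 0.848, 0.783, 1.27 and 0.945 CPM in VAT removed libraries 1 to 5, and Ppil1 11.2, 10.4, 11.3, 11.3 and 10.4 CPM in sham libraries 1 to 5 and 8.13, 7.75, 8.73, 6.35 and 8.04 CPM in VAT removed libraries 1 to 5. Igkv5-43 measured 0.475, 1.33, 3.24, 9.07 and 0.851 CPM in sham libraries 1 to 5 and 0, 0.0771, 0.0237, 0.0907 and 0.122 CPM in VAT removed libraries 1 to 5, with sham 3 and sham 4 the highest. With so few reads after VAT removal it passed the filter on low counts through the sham libraries alone. Its small p and the gap between its groups are therefore not independent of that filter. DESeq2 called Cacna1g, Plxna4os2, Lypd6b, Ppil1 and Igkv5-43 on all 10 libraries. Without the mixed libraries it called none of Cacna1g, Plxna4os2, Lypd6b and Ppil1, and it gave Igkv5-43 no adjusted p. Piezo1, a mechanically gated ion channel, and Gipr, the receptor for the gut hormone GIP, were further DESeq2 calls, chosen here after their values were seen. Piezo1 measured 264, 237, 239, 233 and 282 CPM in sham libraries 1 to 5 and 313, 327, 314, 292 and 345 CPM in VAT removed libraries 1 to 5, a log2 difference of 0.34 ± 0.09 (DESeq2 adjusted p = 0.0121) and 0.27 by DESeq2 without the mixed libraries. Gipr measured 4.45, 2.38, 4.15, 5.18 and 6.92 CPM in sham libraries 1 to 5 and 7.46, 8.36, 7.62, 8.56 and 11.000 CPM in VAT removed libraries 1 to 5, a log2 difference of 0.90 ± 0.25 (DESeq2 adjusted p = 0.0462) and 0.92.

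The liver libraries gave a test of whether the SAT response differed from that of another tissue after the same surgery. The difference of the 2 responses was called for 0 of 19954 genes (0%) by edgeR in 1 fit of SAT and liver, with 2021 at an unadjusted p under 0.05, and for 124 by DESeq2. Lmcd1 had a log2 difference of -0.66 ± 0.26 in liver, and the SAT response exceeded it by 1.18 ± 0.25 (edgeR adjusted p = 0.288, DESeq2 adjusted p = 0.00382). For Il18 the liver value was 0.23 ± 0.15 and the difference -1.10 ± 0.23 (edgeR adjusted p = 0.288, DESeq2 adjusted p = 0.0129). For Peg10 the liver value was -0.85 ± 0.44 and the difference 1.70 ± 0.50 (edgeR adjusted p = 0.313, DESeq2 adjusted p = 0.0719). Synpo and Hsd11b1 had liver values of 0.14 ± 0.36 and 0.11 ± 0.22, with differences of 0.40 ± 0.39 and -1.01 ± 0.32 (DESeq2 adjusted p = 0.754 and 0.175). Of these 5 genes edgeR called the difference of none, and DESeq2 called those of Lmcd1 and Il18.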

How the data were processed

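RNA of 20 samples, 5 per tissue and surgery, was sequenced after ribosomal RNA depletion, per the labels' protocols. The authors deposited a table of raw read counts per gene for all 20 samples. Per the submitters' processing notes bcl2fastq, STAR 2.5.1a, the GRCm38 build and featureCounts 1.46 of Subread were used. No source used here gives the annotation, the strand setting or the handling of multi-mapping reads, so genes with close copies, overlapping or antisense partners are uncertain. Of 40757 entries, 317 exact repeats were dropped, and 235 entries that share 117 symbols were kept apart.

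From these counts, genes were filtered with filterByExpr, scaled by TMM and tested with edgeR 4.0.16 (R 4.3.3) by robust quasi-likelihood, in a fit of the 10 SAT libraries with no covariate, and p-values were adjusted by Benjamini-Hochberg over all genes tested. The SE was taken from the log2 difference and its F statistic. DESeq2 1.42.0, limma 3.58.1 (voom), other scalings and filters, covariates and left-out libraries were alternatives. Leaving out sham 2, 3 and 4 with VAT removed 1 and 2, sham 2 with VAT removed 1 and 2, or sham 3, 4 and 5, and DESeq2 on fewer libraries, were chosen after seeing the data. The scripts were tested on simulated data. The members, the 39 gene lists (844 genes) and the named-gene rule were chosen with earlier results of these data known. The rule took Adipoq, Peg10, Lmcd1 and Il18, all called genes, from each list the 2 members of smallest p, markers of lymph node and muscle, and the 5 genes of smallest unadjusted p in each direction. Some genes are not reported here. Other list members were named for their role after their values were seen. Gene positions are from GENCODE M21, matched by symbol, and promoters from RefSeq. Within each group, libraries differed by more than counting noise, with chi-square over degrees of freedom of 17.8 to 313 for pairs. The lowest value was that of sham 3 and sham 4. Such values cannot show whether 2 libraries came from 1 mouse.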

Additional observations from a re-analysis of the deposited data

Results flagged for a closer look

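In 23 of 160 gene groups and 3 of 78 list groups of 5 libraries, 1 library lay far from the other 4 of its group by Dixon's ratio, and chance alone gives about 1 in 20. VAT removed 2 was the far library most often. It held the highest value of its group for the muscle genes Acta1 (5237 CPM against 15.3 to 226 CPM in the other 4), Ckm (1658 CPM against 1.13 to 73.5 CPM), Neb (3809.5 CPM against 22.3 to 179 CPM) and Casq1 (297 CPM against 4.02 to 20.5 CPM). It was also the highest for the muscle form of cytochrome oxidase Cox7a1 (10.99 CPM against 2.71 to 3.63 CPM), for Atp5g1 (43.2 CPM against 24.01 to 27.4 CPM) and for the mitochondrial ribosomal RNA mt-Rnr2 (1593 CPM against 279 to 610.2 CPM). The elastin gene Eln stood at 117 CPM against 84.3 to 91.1 CPM and Stat5b, a growth hormone signal transducer, at 153 CPM against 89.1 to 107 CPM. For Bmp6 the same library was the lowest, 27.4 CPM against 37.3 to 39.7 CPM.

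Sham 2 was the far library of the sham group for the same muscle genes, with Acta1 at 601 CPM against 8.30 to 49.4 CPM, Ckm at 119 CPM against 0 to 0.241 CPM, Neb at 279 CPM against 14.6 to 29.8 CPM, Casq1 at 29.9 CPM against 3.51 to 8.27 CPM and mt-Rnr2 at 802 CPM against 399 to 505 CPM. Its muscle list score was 6.66, against -0.607 to 0.747. Sham 2 was the lowest for Airn (14.4 CPM against 19.5 to 20.997 CPM) and for the cholesterol synthesis gene Sqle (13.3 CPM against 15.6 to 15.99 CPM).

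Single libraries stood apart in other genes. Sham 5 was high for Gpihbp1, which carries lipoprotein lipase to capillaries (108 CPM against 56.5 to 62.1 CPM), and in the glucocorticoid response score (6.99 against 6.18 to 6.41). Sham 1 was high for Cd9 (32.8 CPM against 25.3 to 27.3 CPM). VAT removed 3 was high for the fatty acid transporter Slc27a1 (831 CPM against 446 to 521 CPM) and for Cyp2e1 (333 CPM against 35.9 to 71.8 CPM). VAT removed 4 was high for Pcna (26.8 CPM against 23.8 to 24.4 CPM), VAT removed 5 was low for Atf3 (9.20 CPM against 12.4 to 13.5 CPM), and VAT removed 1 was high in the epithelial and mammary score (0.616 against 0.119 to 0.203).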

How the results depend on the processing

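DESeq2 called 158 genes where edgeR called 0, 78 without sham 3 and 4, and 42 without sham 3 and 4 and VAT removed 2. At an unadjusted p under 0.05, 1973 genes became 1286 under voom with sample weights and 942 without sham 2, 3 and 4 and VAT removed 1 and 2. Leaving out 1 replicate at a time gave 1109 (without sham 4) to 2841 genes at that level, with 1214 without sham 3, and 0 to 1 called. The 1 call was the immunoglobulin segment Ighv1-72, without sham 5 (edgeR adjusted p = 0.00306) and, as the 1 gene called, without sham 3, 4 and 5 (edgeR adjusted p = 0.0249). For the difference between the SAT and liver responses, DESeq2 called 124 genes, and leaving out single replicates gave 0 to 3, with 1 without SAT sham 5, 1 without liver sham 2 and 3 without liver VAT removed 3.

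With the replicate number as a block, 0 genes were called and 1298 stood at an unadjusted p under 0.05, and 0 were called for the difference between tissues. Libraries of the same number did not deviate together, with correlations of -0.23 to 0.31 and 1 of 5 numbers best matched by its own, so the numbers were not taken as a pairing.

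In 45 cases a named gene turned direction under a setting chosen at the outset (those added after seeing the data were not counted), none of them in a gene that DESeq2 called on all 10 libraries. Log2 differences under the lymphocyte and muscle scores as covariates were Adipoq -0.0813, Slc27a1 -0.0182, Cox7a1 -0.23, Lef1 0.98, Prox1 0.0334, Rel 0.0609, Neb -0.13, Casq1 -0.32, Atp5g1 -0.0690, Ndufb10 -0.0990, mt-Rnr2 -0.27, Trf -0.11, Acta1 -0.92. Without sham 3 and 4 they were Adipoq -0.12, Slc27a1 -0.0134, Lef1 1.31, Prox1 0.18, Rel 0.0845, Ndufb10 -0.0620, Slc7a11 0.00338, Trf -0.17. Without sham 3 and 4 and VAT removed 2 they were Adipoq -0.0752, Cox7a1 -0.31, Lef1 1.27, Prox1 0.19, Rel 0.0800, Ikbkb 0.0190, Neb -0.55, Casq1 -0.57, Atp5g1 -0.0942, Ndufb10 -0.0825, mt-Rnr2 -0.35, Trf -0.12, Acta1 -1.33, Ckm -0.81. Under voom with sample weights Lef1 was 0.95. Leaving out single replicates, the lowest and highest values were Cox7a1 -0.00402 to 0.74, Neb -0.0559 to 5.03, Casq1 -0.0956 to 3.63, Atp5g1 -0.00733 to 0.25, mt-Rnr2 -0.22 to 0.60, Hba-a2 -0.38 to 0.0556, Cdh1 -0.11 to 0.61, Acta1 -0.65 to 5.80, Ckm -0.0914 to 11.59, where the turned value came without VAT removed 2, except for Cdh1 (without VAT removed 1) and Hba-a2 (without sham 5). The other 2078 values of named genes kept direction and side of the threshold, and 21 passed it under DESeq2. Of list medians, 53 moved by more than the spread between replicates and 1076 did not. DESeq2 gave no median for the skeletal muscle list, whose members had no p there. Genes of low count such as P4ha3 and Dlk1 rest on few reads.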

Other observations

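Signalling and stress genes of the depot differed in few members, and the counts below lie close to what the shares of all genes, 4.38% higher and 6.27% lower, give for lists of this size. Of 25 TGF-beta and BMP genes 2 were higher and 0 lower at an unadjusted p under 0.05, with a median log2 difference of 0.12. Bmp6, a bone morphogenetic protein, measured 23.4, 30.9, 16.8, 19.2 and 38.002 CPM in sham libraries 1 to 5 and 39.7, 27.4, 37.3, 38.03 and 37.9 CPM in VAT removed libraries 1 to 5, and its log2 difference was 0.49 ± 0.21 with VAT removed 2 the lowest of its group, and 0.31 without sham 3 and 4 and VAT removed 2. Eng, a coreceptor of the family on endothelium, differed by 0.32 ± 0.11. Of 18 immediate early genes 2 were higher, Atf3, a stress-induced transcription factor, with 0.45 ± 0.19 and Dusp1, a MAP kinase phosphatase, with 0.37 ± 0.15. Of 21 antioxidant and glutathione genes 2 were lower. Gclc, which makes the first step of glutathione synthesis, differed by -0.28 ± 0.11, and Slc7a11, the cystine transporter, by -1.05 ± 0.44. Without sham 3 and 4 these stood at -0.12 and 0.00.

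Of 19 clock genes 1 was higher at that level, Nr1d2, a heme-bound repressor, with 0.29 ± 0.12, and without sham 3 and 4 and VAT removed 2 there were 0. Per1, a repressor of the clock that also answers glucocorticoid, measured 87.02, 149.9, 162, 177 and 215 CPM in sham libraries 1 to 5 and 171, 200.3, 193, 239.8 and 248 CPM in VAT removed libraries 1 to 5, with overlapping groups and a log2 difference of 0.41 ± 0.21. Of 16 hypoxia genes 1 was higher, Ndrg1 with 0.35 ± 0.14, and of 23 Wnt genes 1 was lower, Lef1, a Wnt effector that T cells also express, with -4.33 ± 1.54. Lef1 measured 0.534, 0.651, 61.5, 46.3 and 0.0740 CPM in sham libraries 1 to 5 and 0.955, 1.19, 0.973, 0.665 and 1.61 CPM in VAT removed libraries 1 to 5, and its difference was 1.27 without sham 3 and 4 and VAT removed 2. Of 12 neutrophil and mast cell markers S100a8, a neutrophil calcium-binding protein, was lower with -0.85 ± 0.27. Of 23 endoplasmic reticulum and integrated stress genes 1 was higher, Atf3. Ucp1, the uncoupling protein of brown and beige fat, did not pass the filter on low counts.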
